A study of Mus musculus with 8 samples.

Results

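The nuclear-encoded subunits of the mitochondrial respiratory chain were followed across 4 groups of mouse embryonic stem cells (ESCs) that differed in their supply of WDR5. Members were chosen by name alone: a probe set was included where its only gene symbol was Ndufa, Ndufb, Ndufc, Ndufs or Ndufv followed by a number, began with Uqcr or Atp5, was Sdha, Sdhb, Sdhc or Sdhd, or was Cox followed by a number from 4 to 8 (Cox4i1, Cox5a and the like). Of 34945 probe sets with exactly 1 gene symbol, 164 met this rule, and they stood for 81 of 18193 genes. A linear-scale signal above 50 in 1 or more arrays was found for 145 of these probe sets and 78 of the genes, against 11940 genes in all. The 78 genes comprised 32 of complex I, 4 of complex II, 8 of complex III, 17 of complex IV and 17 of complex V, with Ndufa4 and Ndufa4l2 counted in complex IV, where the NDUFA4 protein is known to sit. The 3 members below the minimum were Ndufb4, Cox4i2 and Cox7b2. Ndufs6, Ndufa11 and Cox7b were not analysed here.

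The cells were V6.5 mouse ESCs infected with a lentivirus that carried 2 cassettes and sorted for green fluorescence. One cassette constitutively expressed an shRNA against mouse Wdr5, and the other expressed human WDR5, either wild type (WT) or the F266A mutant that was made to disrupt RNA binding, when doxycycline was present. WDR5 is an adaptor of the MLL complexes, which methylate histone H3 at lysine 4. Each line was cultured with 2 µg/mL doxycycline (WT +dox and F266A +dox) or without it (WT -dox and F266A -dox), and each of the 4 groups had 2 Affymetrix arrays, described as biological duplicates. The shRNA was common to all 4 groups, so a group with an intact endogenous Wdr5 mRNA was not among them. WT and F266A were 1 infected and sorted population each, so the mutation and other differences between the populations cannot be told apart.

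The respiratory chain lies in the inner mitochondrial membrane. Complex I takes electrons from NADH and complex II from succinate, complex III passes them to cytochrome c, complex IV passes them to oxygen, and the proton gradient built on the way drives ATP synthesis by complex V. Most subunits are encoded in the nucleus, but some of those in complexes I, III, IV and V are encoded in mitochondrial DNA and made on mitochondrial ribosomes, so that both genomes supply a shared machine. ESCs draw heavily on glycolysis, and their reliance on respiration is known to change as they leave the naive state.

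In these arrays the members were among the brightest genes. Their median log2 level was 11.58, against 7.71 for all genes tested, and 68 of the 78 members were in the top 25% of genes by mean level, although a probe set's signal cannot be set against another's as an amount of mRNA. The median SD between duplicates was 0.045 on the log2 scale for the members and 0.079 for all genes. The probe sets annotated to mouse Wdr5 read 8.32 to 8.59 on the log2 scale in the +dox arrays and 9.27 to 9.45 in the -dox arrays; since the shRNA was in every group, this does not check it, and whether these probe sets also detect the human WDR5 mRNA is not known, so the values cannot be read as endogenous Wdr5 alone. ESC markers were above the minimum for 12 of 12 genes, and their summed linear level was 66374 to 67294 in WT +dox, then 62249 to 63400 (WT -dox), 60321 to 60338 (F266A +dox) and 50590 to 52964 (F266A -dox). Of 12 fibroblast markers 6 were above the minimum, with Col1a1, Col3a1, Thy1, Postn, Dcn and Lum below it, and the list summed to 1310 to 1358, 2158 to 2243, 4235 to 4675 and 5397 to 6647 in the same order of groups. Such sums weigh bright genes most. In WT -dox minus WT +dox 7 of the 12 ESC differences were above 0 and 5 below, with a median of 0.08. Of the 6 fibroblast differences 3 were above 0 and 3 below. In F266A +dox minus WT +dox 3 ESC differences were above 0 and 9 below. For F266A -dox minus WT +dox these were 2 and 10. In both of these comparisons all 6 fibroblast differences were above 0. Of these genes, Cav1 (5.52 and 5.27 on the log2 scale) and S100a4 (5.28 and 5.21) had gene values below the minimum in WT +dox. Their gene values were above it only in F266A arrays, S100a4 only in F266A -dox, so their signs are not independent of the filter. The 18S ribosomal RNA control signal also moved with the groups, with log2 values of 10.99 to 11.42 in WT +dox but only 9.57 to 9.60 once doxycycline was withdrawn from F266A cells. The part of cell makeup and of RNA composition in the results on the members was not tested, and in bulk RNA fewer cells of a type and less RNA per cell cannot be told apart.

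Respiratory subunit mRNAs were highest where WT WDR5 was supplied. Relative to the mean of the WT +dox arrays, the median log2 level of the 78 members was lower by 0.114 and 0.110 in the WT -dox arrays, by 0.071 and 0.072 in the F266A +dox arrays and by 0.158 and 0.131 in the F266A -dox arrays. All 6 of these arrays lay below both WT +dox arrays, which differed from their own mean by 0.006, while the medians of all genes stayed within 0.023 of zero in all 8 arrays. WT +dox had the highest group mean for 53 of the 78 members (67.9%), against 33.9% of all genes tested, and F266A -dox had the lowest for 44 members (56.4%), against 33.2% of all genes. The shifts of the median were small, and the differences of some single subunits were larger.

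**Figure D1:**
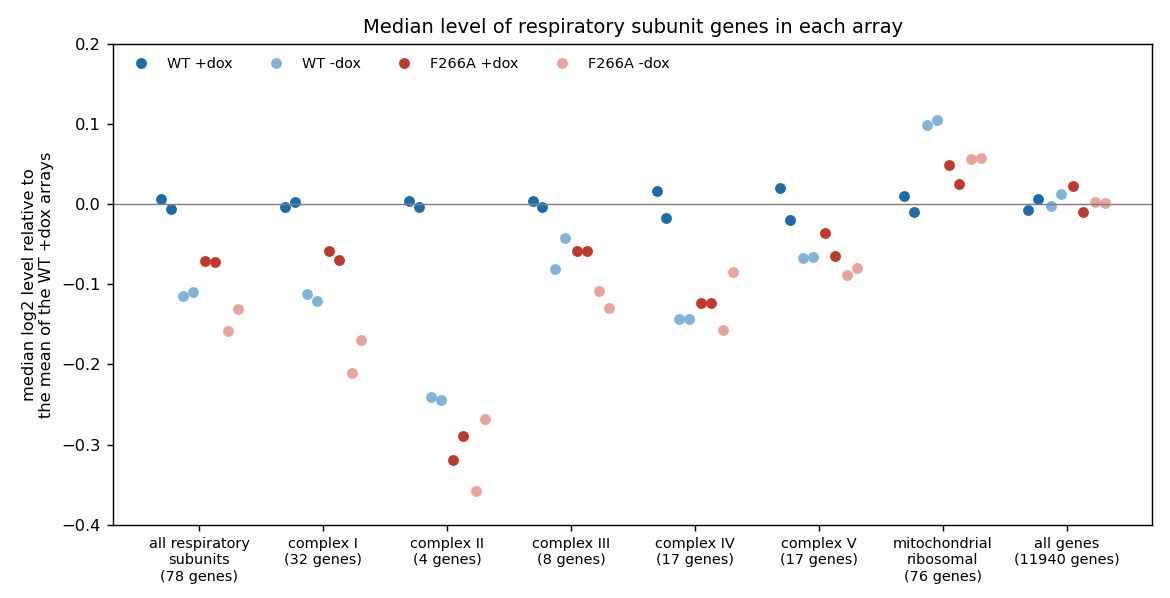
Median log2 level in each of the 8 arrays relative to the mean of the WT +dox arrays, for all respiratory subunits, each complex, the mitochondrial ribosomal protein genes and all genes tested; each point is 1 array. The respiratory subunits lay below WT +dox in the other 3 groups, complex II by the most, while the mitochondrial ribosomal protein genes lay above it.

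Withdrawal of doxycycline from the WT cells ended the induction of WT WDR5. In either line it took away the drug as well as the induction. No group without the WDR5 cassette was grown with and without doxycycline, so effects of the drug and of WDR5 cannot be told apart. Of the 78 subunits, 20 fell and 3 rose at an adjusted p under 0.05 in limma's moderated test (called, below), and 59 differences were below 0. Among all 11940 genes tested 31.5% were called, 16.1% higher and 15.4% lower, so the total share of members called, 29.5%, was close to the background, whereas 25.6% of members fell and 3.85% rose. The median difference of the members was -0.11 on the log2 scale, against 0.004 for all genes and 0.05 for the 2985 genes in the top 25% by level, of which 23.7% rose and 13.5% fell. Calls depended on the small number of arrays. Without WT +dox replicate 1 or 2 the count was 11 or 14, and without either WT -dox array it was 10. The calls that held in all 8 fits that left out an array numbered 9, those of Cox6b2, Cox7a1, Cox7a2l, Ndufa6, Ndufb5, Ndufb9, Sdhb, Uqcrc2 and Ndufa4l2.

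Cytochrome c oxidase (complex IV) held the largest changes. Cox6b2, the isoform of subunit 6B best known from testis, had log2 levels of 11.30 and 11.08 in WT +dox and 10.15 and 10.17 after withdrawal. It fell 2.04-fold (log2 difference -1.03 ± 0.11 SE, n = 2 arrays a group, limma adjusted p = 0.00016), and was the only member called with at least a 2-fold change, a class that held 1.36% of all genes. Cox7a1, the isoform of subunit 7A typical of heart and skeletal muscle, read 8.72 and 8.72 in WT +dox and 8.36 and 8.37 after withdrawal. It fell by 0.35 ± 0.06 on the log2 scale, many times the distance between duplicates. Of 8 heart and skeletal muscle markers 4 were above the minimum, with Myh6, Myh7, Tnnt2 and Myog below it, and the list summed to 412 to 478 in WT +dox and 397 to 407 after withdrawal on the linear scale. Of the 4, Des fell (-0.37, limma adjusted p = 0.0156) and the other 3 were not called, among them Actc1 at 0.16. In the F266A arrays the list summed to 470 to 493 with doxycycline and 481 to 498 without, and in both groups Actc1 and Tnnc1 were called higher than in WT +dox and none of the 4 lower, where Cox7a1 was lower. The part of these markers in the Cox7a1 values was not tested. The related Cox7a2l, whose protein joins complexes III and IV into supercomplexes, read 11.91 and 11.91 in WT +dox and 11.55 and 11.56 after withdrawal. It fell by 0.36 ± 0.06. The third gene of this family, Cox7a2, was not called, with 13.13 and 13.08 in WT +dox against 13.05 and 13.07 after withdrawal (-0.05 ± 0.07). Of 17 complex IV genes 5 fell, the others being Cox5a and Cox6a1 (each by 0.20), and 1 rose. The core nuclear subunit Cox4i1, at 13.29 and 13.30 against 13.23 and 13.25, was not called (-0.06 ± 0.07).

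The riser in complex IV was Ndufa4l2, a relative of NDUFA4 that is known as a target of the hypoxia pathway. Its levels were 6.46 and 6.35 in WT +dox and 6.91 and 6.94 after withdrawal. It rose 1.43-fold (0.52 ± 0.09, adjusted p = 0.0024). NDUFA4 itself, the subunit it is thought to replace, differed by -0.13 ± 0.07 and was not called.

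**Figure D2:**
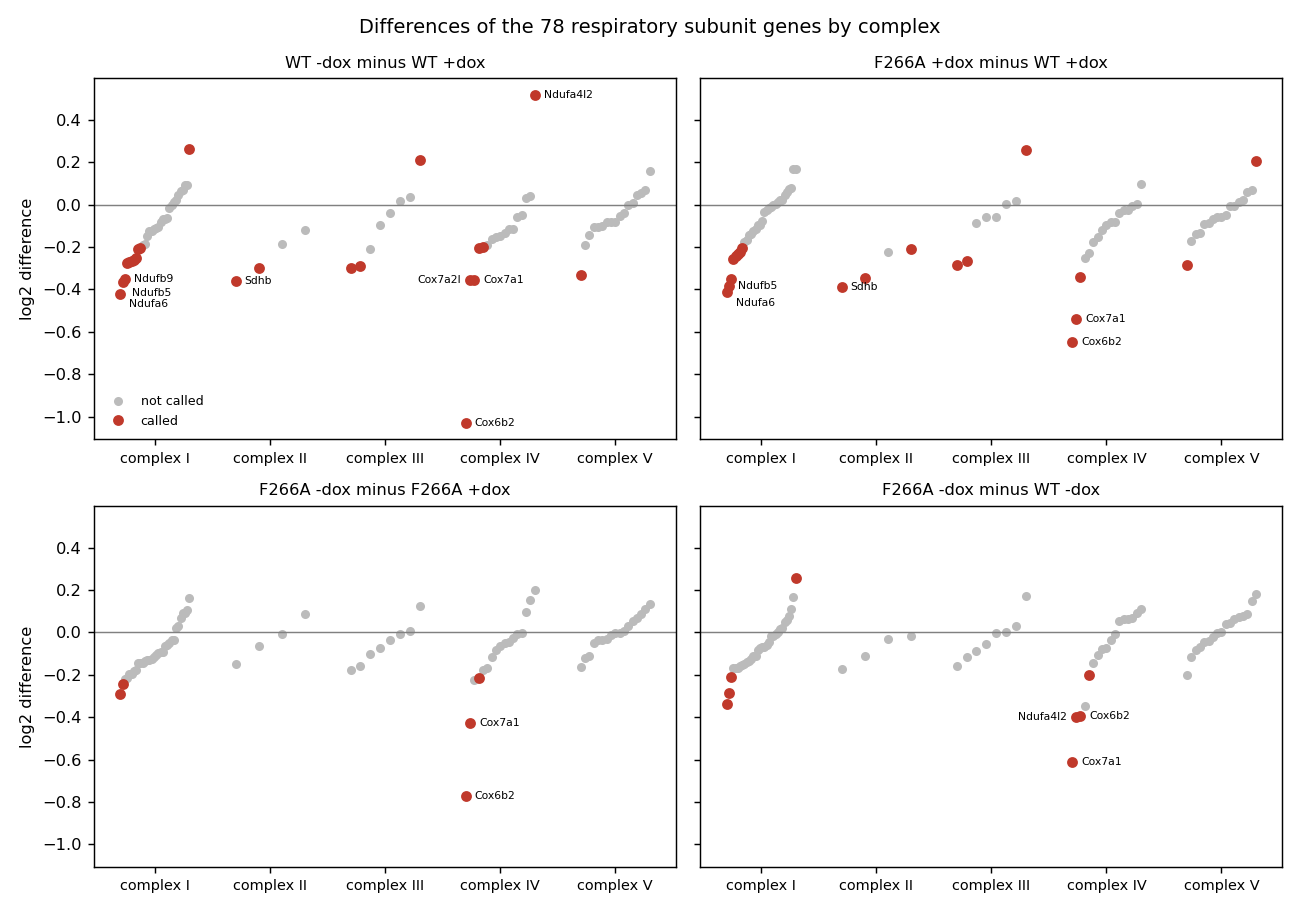
Log2 difference of each of the 78 respiratory subunit genes in 4 comparisons, ordered within each complex; red points were called (adjusted p under 0.05) and named where at least 0.35 in size, grey points were not called. In WT -dox minus WT +dox and in F266A +dox minus WT +dox most points lay below 0, with Cox6b2, Cox7a1 and Ndufa6 among the lowest.

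In complex I, the NADH dehydrogenase, 10 of 32 genes fell and 1 rose. The falls were in accessory subunits, which surround the catalytic core: Ndufa6, Ndufb5 and Ndufb9 fell by 0.42, 0.37 and 0.35, and Ndufa7, Ndufa13, Ndufb8, Ndufb11, Ndufc1, Ndufc2 and Ndufs5 by 0.20 to 0.27. Ndufa6, a subunit of the LYR family, read 11.83 and 11.83 in WT +dox and 11.38 and 11.44 after withdrawal. Ndufb5, a membrane-arm subunit, read 12.32 and 12.39 in WT +dox and 11.97 and 12.01 after withdrawal. In both genes the distance between the groups was several times that between duplicates. Of 6 core subunits, which carry the flavin and the iron-sulfur clusters (Ndufs1, Ndufs3, Ndufs7, Ndufs8, Ndufv1 and Ndufv2, a group chosen after the values were seen), none was called, and their median difference was -0.09; 1 of them had an unadjusted p under 0.05, and the largest difference was that of Ndufs8 (-0.19 ± 0.07). The riser was Ndufv3, an accessory subunit beside the flavin site, at 11.23 and 11.27 in WT +dox against 11.55 and 11.48 after withdrawal (0.26 ± 0.07). This call was lost when any array of either group was left out.

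Complex II, succinate dehydrogenase, has 4 subunits, all encoded in the nucleus, and doubles as an enzyme of the citrate cycle. All 4 differences were below 0. Sdhb, the iron-sulfur subunit, read 11.93 and 11.88 in WT +dox and 11.54 and 11.55 after withdrawal. It fell by 0.36 ± 0.07. Sdhc, a membrane anchor, read 9.82 and 9.64 in WT +dox and 9.40 and 9.45 after withdrawal, and fell by 0.30 ± 0.08, but without WT +dox replicate 1 the difference was -0.21 and was not called. The flavoprotein Sdha (-0.18 ± 0.07) and the other anchor, Sdhd (-0.12 ± 0.08), were not called.

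In complex III 2 of 8 genes fell and 1 rose. Uqcrc2, a core protein, read 12.07 and 12.14 in WT +dox and 11.81 and 11.81 after withdrawal, and fell by 0.30 ± 0.07. Uqcr10, a small subunit near cytochrome c1, fell by 0.29 ± 0.07, which was not called without any array of either group. Its brightest probe set read 11.977 and 11.895 in WT +dox and 11.796 and 11.81 after withdrawal. The dimmest one read 8.85 and 8.89 against 8.38 and 8.37, a larger fall. Against these, Uqcrh, the hinge protein that helps complex III to meet cytochrome c, read 11.48 and 11.46 in WT +dox and 11.70 and 11.66 after withdrawal, and rose by 0.21 ± 0.07; its adjusted p was 0.040, and the call was lost without any array of either group and without either F266A +dox array. In complex V, the ATP synthase, 1 of 17 genes was called: Atp5c1, the gamma subunit of the rotor, fell by 0.33 ± 0.07, from 10.05 and 10.07 to 9.76 and 9.69, a call lost without WT -dox replicate 2. Its brighter probe set read 13.02 and 13.04 in WT +dox and 12.91 and 12.84 after withdrawal. The dimmer one read 7.08 and 7.10 against 6.61 and 6.54, so most of the fall was in the dimmer one. The catalytic beta subunit Atp5b, at 13.39 and 13.35 against 13.28 and 13.30, differed by -0.08 ± 0.07. Complex V thus had the smallest share of falls, 5.88% of its genes against 31.2% in complex I, 29.4% in complex IV and 50% in complex II; the difference between complexes was not tested.

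Promoter sequence was read for the members, and the sequences below were printed to show what the letters of 3 activator motifs look like in members with different values. The RefSeq promoter table (build GRCm38.p6, 250 bases before to 50 after a start) held 66 of the 81 genes. The letters CGCATGCG, the core of the site bound by nuclear respiratory factor 1, were found in 8 of these 66 genes (12.1%), against 2.07% of all 27025 genes in the table. AAGATGGCG, a YY1 site, was found in 6 genes (9.09%, against 1.64%), and CCGGAAGTG, an ETS site of the kind bound by GABP, in 2 genes (3.03%, against 2.25%). Both strands were searched for exact letters, and no match overlapped another. Nuclear respiratory factor 1 letters were in Atp5g2, Atp5j, Atp5k, Atp5l, Cox6a1, Ndufa8, Uqcr11 and Uqcrc1, YY1 letters in Atp5j, Atp5j2, Ndufa9, Ndufc1, Ndufs4 and Ndufs7, and ETS letters in Ndufs3 and Uqcrh. The stretches shown are 5′ to 3′ on the gene's strand, with the matched letters in capitals. Cox6a1 (chr5:115349059-115349158, minus strand), which fell on WT withdrawal, and Atp5l (chr9:44920893-44920992, minus strand), which was higher in F266A +dox than in WT +dox, both hold the letters of nuclear respiratory factor 1. Uqcrh (chr4:116075071-116075170, minus strand), the riser of complex III, holds ETS letters on the opposite strand. Ndufc1 (chr3:51408915-51408944, minus strand) and Ndufs4 (chr13:114388045-114388074, minus strand), lower in F266A +dox than in WT +dox, hold YY1 letters just after the start. The 100 bases before the start of Cox6b2 (chr7:4753095-4753194, minus strand) and Cox7a1 (chr7:30184071-30184170, plus strand), which were called lower in all 5 pairwise comparisons, hold none of the 3 and so have no capitals. A match is only a match of letters, and the absence of one says only that those letters are not in the window.
Cox6a1: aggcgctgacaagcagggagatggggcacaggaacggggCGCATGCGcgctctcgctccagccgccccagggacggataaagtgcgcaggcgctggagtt
Atp5l: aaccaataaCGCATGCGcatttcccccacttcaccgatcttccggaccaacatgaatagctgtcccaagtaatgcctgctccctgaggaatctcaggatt
Uqcrh: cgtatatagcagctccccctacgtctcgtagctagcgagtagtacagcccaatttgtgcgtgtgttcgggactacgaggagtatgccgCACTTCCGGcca
Ndufc1: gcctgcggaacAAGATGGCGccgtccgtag
Ndufs4: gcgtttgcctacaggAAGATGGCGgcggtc
Cox6b2: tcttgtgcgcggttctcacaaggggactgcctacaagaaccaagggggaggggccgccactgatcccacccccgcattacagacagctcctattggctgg
Cox7a1: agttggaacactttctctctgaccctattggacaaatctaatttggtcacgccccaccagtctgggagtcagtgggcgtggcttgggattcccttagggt

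F266A +dox was compared with WT +dox, where both cassettes were induced. The study reported equal mRNA from both cassettes but less F266A than WT protein, with F266A also depleted in nuclear and chromatin fractions. The mutation and the lower amount of protein therefore cannot be told apart in these values. Of the 78 subunits 17 were lower in F266A +dox and 2 higher, and 58 differences were below 0. Among all genes 28.3% were called, 15.9% higher and 12.5% lower, against 2.56% higher and 21.8% lower of the members, whose median difference was -0.08. This comparison and the WT withdrawal share the WT +dox arrays, so each gene's values in both are not independent. The count was 9 or 10 without WT +dox replicate 1 or 2, and 9 or 8 without F266A +dox replicate 1 or 2. The calls of Cox6b2, Cox7a1, Cox7a2l, Ndufa6, Ndufb5, Ndufs4 and Sdhb held in all 8 fits that left out an array.

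Cox6b2 read 10.52 and 10.55 in F266A +dox, between the WT +dox and the WT -dox arrays, and was lower than in WT +dox by 0.65 ± 0.11. Cox7a1 read 8.20 and 8.16 in F266A +dox, below the WT -dox arrays too, and was lower by 0.54 ± 0.06. Cox7a2l read 11.57 and 11.58 and was lower by 0.34 ± 0.06. These were the 3 complex IV calls, and Ndufa4l2 was not among them (-0.04 ± 0.09, with 6.28 and 6.45 overlapping the WT +dox arrays).

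Complex II had the largest share of lower genes. Sdhb read 11.54 and 11.50 in F266A +dox and was lower than in WT +dox by 0.39 ± 0.07, Sdhc read 9.38 and 9.38 and was lower by 0.35 ± 0.08, and Sdha read 11.04 and 11.00 and was lower by 0.21 ± 0.07. Sdhd missed the threshold with a difference of -0.22 ± 0.08 (adjusted p = 0.052). For Sdhb and Sdhc the F266A +dox arrays thus lay at or just below the WT -dox arrays. The Sdhc call was lost without WT +dox replicate 1, and the Sdha call without any array of the WT +dox, WT -dox or F266A +dox groups.

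In complex I 8 of 32 genes were lower and none was higher. Ndufa6 read 11.45 and 11.39 and was lower by 0.41 ± 0.07, and Ndufb5 read 11.98 and 11.97 and was lower by 0.38 ± 0.06. Ndufs4, an assembly-critical accessory subunit whose loss causes Leigh syndrome, read 8.26 and 8.23, below the WT +dox arrays (8.61 and 8.59) and the WT -dox arrays (8.43 and 8.48). It was lower in F266A +dox than in WT +dox by 0.35 ± 0.06, whereas its difference on WT withdrawal was -0.15 ± 0.06 and was not called. Its probe sets differed here. The brightest read 10.32 and 10.33 in WT -dox and 10.33 and 10.32 in F266A +dox, so it did not separate these groups. The dimmest of those above the minimum read 6.72 and 6.80 against 6.36 and 6.17. None of these core subunits of complex I was called (median difference -0.12; 1 of 6 had an unadjusted p under 0.05). In complex III Uqcrc2 was lower by 0.28 ± 0.07, Uqcr10 was lower by 0.26 ± 0.07 and Uqcrh was higher by 0.26 ± 0.07. In complex V Atp5c1 was lower by 0.28 ± 0.07, and Atp5l, the g subunit of the membrane sector, was higher by 0.21 ± 0.07, with values of 12.47 and 12.47 against 12.26 and 12.26. Their calls and those of Uqcr10 and Uqcrh were lost without any array of either group (that of Atp5l also without either WT -dox array), and that of Uqcrc2 without WT +dox replicate 2 or F266A +dox replicate 2.

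**Figure D3:**
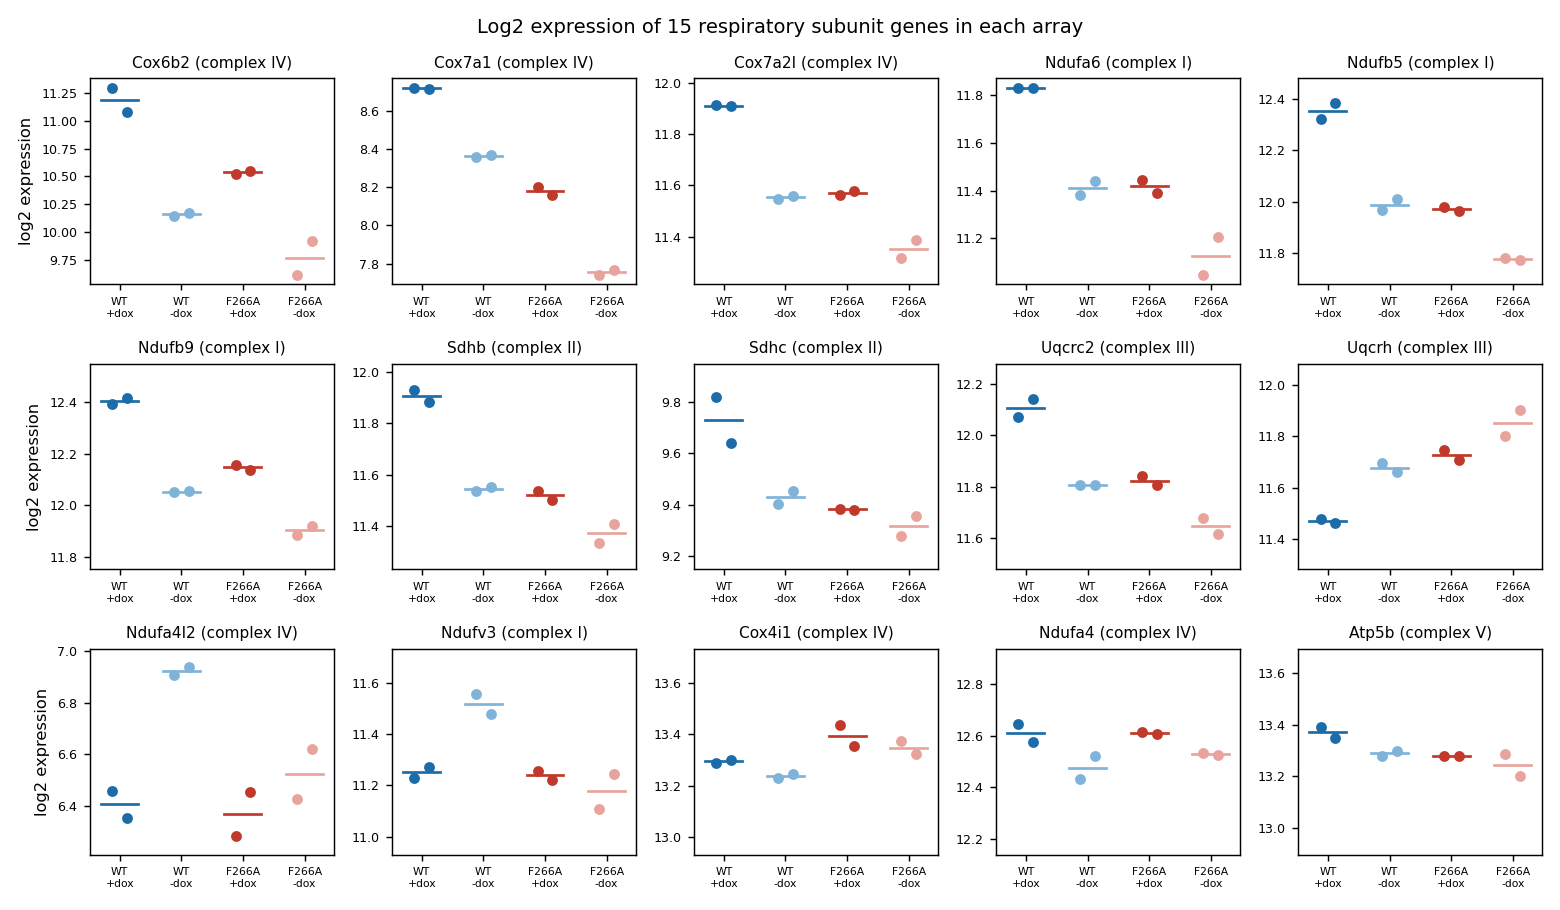
Log2 expression of 15 respiratory subunit genes in each of the 8 arrays; points are single arrays, horizontal lines group means, and each panel has its own axis that spans at least 0.8 log2 units. Cox6b2, Cox7a1, Cox7a2l and Ndufa6 were lowest in F266A -dox, Uqcrh was highest there, Ndufa4l2 and Ndufv3 were highest in WT -dox, and Cox4i1, Ndufa4 and Atp5b moved little.

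Withdrawal from the F266A cells called few subunits. Of 78, 5 fell and none rose, against 8.94% of all genes called higher and 10.6% called lower (19.5% in all), and the share of members that fell, 6.41%, was below the background. The median difference was -0.06, with 58 differences below 0. Cox6b2 read 9.61 and 9.92 in F266A -dox and fell by 0.77 ± 0.11 from F266A +dox. Cox7a1 read 7.74 and 7.77 and fell by 0.43 ± 0.06. Both calls held when any array was left out, and these were the lowest values of the 2 genes in the series. Ndufa6 read 11.05 and 11.21 and fell by 0.29 ± 0.07, Ndufb9 read 11.89 and 11.92 and fell by 0.24 ± 0.06, and Cox7a2l read 11.32 and 11.39 and fell by 0.22 ± 0.06. The last 3 calls were lost in some of the fits that left out an array, that of Cox7a2l in all 8, and the count was 2 without F266A +dox replicate 1, F266A +dox replicate 2 or F266A -dox replicate 1. It also moved with the normalization: 15 members fell after quantile normalization of the gene values. More members were called with a trended and robust prior variance too, as given below, so the low share holds for the main fit alone.

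Complexes II, III and V had no call on F266A withdrawal. The largest differences were those of Sdhb (-0.15 ± 0.07) and Sdhd (0.09 ± 0.08) in complex II, Uqcrc2 (-0.18 ± 0.07) and Uqcrc1 (-0.16) in complex III, and Atp5a1 (-0.16 ± 0.07) and Atp5mpl (0.13) in complex V. The number with an unadjusted p under 0.05 was 1 in complex II, 1 in complex III and 0 in complex V, and over all 78 members it was 17.

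With doxycycline withdrawn from both lines, 7 members were lower in F266A -dox than in WT -dox and 1 was higher, against 13.4% and 14% of all genes (27.4% called in all). In the main fit the members' shares, 8.97% and 1.28%, were below the background in both directions, and the median difference was -0.05. With a trended and robust prior variance more members were called, as given below. Cox7a1 was lower by 0.61 ± 0.06 (adjusted p = 0.00015), the only call that held when any array was left out. Ndufa4l2, at 6.43 and 6.62 in F266A -dox, was lower by 0.40 ± 0.09, Cox6b2 by 0.39 ± 0.11 and Cox7a2l by 0.20 ± 0.06. In complex I Ndufv3 was lower by 0.34 ± 0.07, Ndufa6 by 0.29 ± 0.07 and Ndufb5 by 0.21 ± 0.06. The count was 2 without either WT -dox array and 5 without F266A -dox replicate 1.

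The gene that was higher was Ndufb7, a complex I subunit of the intermembrane space, which read 11.43 and 11.39 in the WT arrays and 11.59 and 11.74 in the F266A arrays (0.25 ± 0.08, adjusted p = 0.037). Ndufb7 lies on chromosome 8, and the median difference of the 652 tested genes of that chromosome was 0.15 in the same comparison; the part of the chromosome in the result was not tested. The call was lost without either WT -dox array or F266A -dox replicate 2. In complexes II, III and V no gene was called, with the largest differences in Sdhb (-0.17 ± 0.07), Sdhc (-0.11 ± 0.08), Uqcrh (0.17 ± 0.07), Uqcrc2 (-0.16 ± 0.07), Atp5a1 (-0.20 ± 0.07) and Atp5g3 (0.18 ± 0.07).

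Whether withdrawal acted differently in the 2 lines was tested as an interaction, the F266A withdrawal difference minus the WT one. No member was called in limma, against 5.15% of all genes (2.21% higher and 2.94% lower), 6 of 78 had an unadjusted p under 0.05, and the largest values were 0.36 ± 0.10 for Atp5c1 (adjusted p = 0.079), -0.36 ± 0.13 for Ndufa4l2 and -0.33 ± 0.10 for Ndufv3. The other 3 were Uqcr10 (0.29), Ndufs4 (0.24) and Sdhb (0.21). The median was 0.05, with 53 values above 0 and 25 below, against -0.009 for all genes. With each probe set tested on its own 2 were called, 1 of Atp5c1 and 1 of Uqcr10, and with a trended and robust prior variance 5 members were called.

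The ends of the series, F266A -dox and WT +dox, had the most calls. Of 78 members 31 were lower in F266A -dox and 4 higher, with 63 differences below 0 and a median of -0.13. Of all genes 50.9% were called, 25.9% higher and 25% lower, against 5.13% and 39.7% of the members, and the count ranged from 26 to 32 when an array was left out. Cox6b2 was 2.68-fold lower (-1.42 ± 0.11), Cox7a1 1.95-fold lower (-0.97 ± 0.06), Ndufa6 1.63-fold lower (-0.71 ± 0.07) and Cox7a2l 1.47-fold lower (-0.56 ± 0.06). Cox6b2 alone was called with at least a 2-fold change, as were 5.47% of all genes.

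In complex I 17 of 32 genes were lower between the ends and 1 was higher, and here the core was included. Ndufb5 was lower by 0.58 ± 0.06 and Ndufb9 by 0.50 ± 0.06. Of the 6 core subunits 4 were lower: Ndufv2 by 0.27 ± 0.07, Ndufv1 by 0.26 ± 0.06, Ndufs7 by 0.23 ± 0.07 and Ndufs8 by 0.21 ± 0.07; the calls of Ndufv1 and Ndufv2 held in all 8 fits that left out an array, and those of Ndufs7 and Ndufs8 did not. The higher one was Ndufb7 (0.28 ± 0.08, with a chromosome 8 median of 0.20 beside it). In complex II Sdhb, Sdhc and Sdha were lower by 0.53, 0.41 and 0.21, and in complex III Uqcrc2 by 0.46 and Uqcr10 by 0.26. Uqcrh was higher by 0.38 ± 0.07, with 11.80 and 11.90 in F266A -dox, and this call held when any array was left out. In complex IV Cox5a, Cox6a1 and Cox6c were lower beside the 3 genes above, by 0.35, 0.27 and 0.27. In complex V Atp5a1, the alpha subunit, was lower by 0.30 ± 0.07, Atp5c1 by 0.26 ± 0.07 and Atp5h by 0.17 ± 0.06, while Atp5l and Atp5g3 were higher by 0.19 ± 0.07 and 0.18 ± 0.07. The dimmest Atp5a1 probe set read 7.57 and 7.65 in WT +dox and 7.06 and 7.07 in F266A -dox. The brightest read 13.25 and 13.21 against 13.08 and 13.12, a smaller difference. The calls of Atp5g3 and Atp5h were lost in all 8 fits that left out an array.

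A test for any difference among the 4 groups called 30 of the 78 members, against 51% of all genes. These were 16 in complex I, 2 in complex II, 3 in complex III, 7 in complex IV and 2 in complex V. The share of members called, 38.5%, was thus below the background, while in the pairwise comparisons most of their calls were in the same direction. The count was 17 or 19 without WT +dox replicate 1 or 2, and 19 without WT -dox replicate 1.

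Subunit isoforms, which a cell can exchange within a complex, did not all move alike. Cox4i2, the hypoxia-linked alternative to Cox4i1, stayed below the minimum in every array (5.19 to 5.37 on the log2 scale), and Cox4i1 was called in none of the comparisons. Cox4i1 lies on chromosome 8, like Ndufb7. The median difference of that chromosome was 0.09 in F266A +dox minus WT +dox and 0.20 between the ends. The part of the chromosome in the Cox4i1 values was not tested. Of the 3 genes for the ATP synthase c ring, Atp5g1, Atp5g2 and Atp5g3, only Atp5g3 was called, and only between the ends of the series. Cox7a1 was called in all 5 pairwise comparisons, as were Cox6b2 and Cox7a2l, and Ndufa6 was the only other member called in all 5. These comparisons share groups, so the calls are not independent of each other. Probe sets of a gene disagreed in 3 members, where at least 1 was called alone and another had the opposite sign: Cox8c in F266A +dox minus WT +dox (-0.30 called and 0.06) and in the comparison of the ends (-0.23 called and 0.18), and Atp5j2 and Uqcrq in the comparison of the ends. None of these 3 genes was called on its gene value.

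Mitochondrial ribosomal proteins were called higher more often than lower on WT withdrawal. Of 76 mitochondrial ribosomal protein genes, which build the ribosomes for the mitochondrially encoded subunits, 25 rose and 1 fell on WT withdrawal (median 0.10), with Mrpl20 the highest (0.66). The shares were 32.9% and 1.32%, against 16.1% and 15.4% of all genes and 23.7% and 13.5% of the genes in the top 25% by level. Their median lay above WT +dox in all 6 other arrays, by 0.025 to 0.106, where that of the respiratory subunits lay below in all 6. In F266A +dox minus WT +dox 11 were higher and 5 lower (14.5% and 6.58%, against 15.9% and 12.5% of all genes). On F266A withdrawal 8 rose and 1 fell (10.5% and 1.32%, against 8.94% and 10.6%), so the share that rose was near the background. In F266A -dox minus WT -dox 6 were higher and 9 lower (7.89% and 11.8%, against 14% and 13.4%), and between the ends 26 were higher and 13 lower (34.2% and 17.1%, against 25.9% and 25%). WT +dox had the lowest group mean for 37 of the 76 genes.

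**Figure D4:**
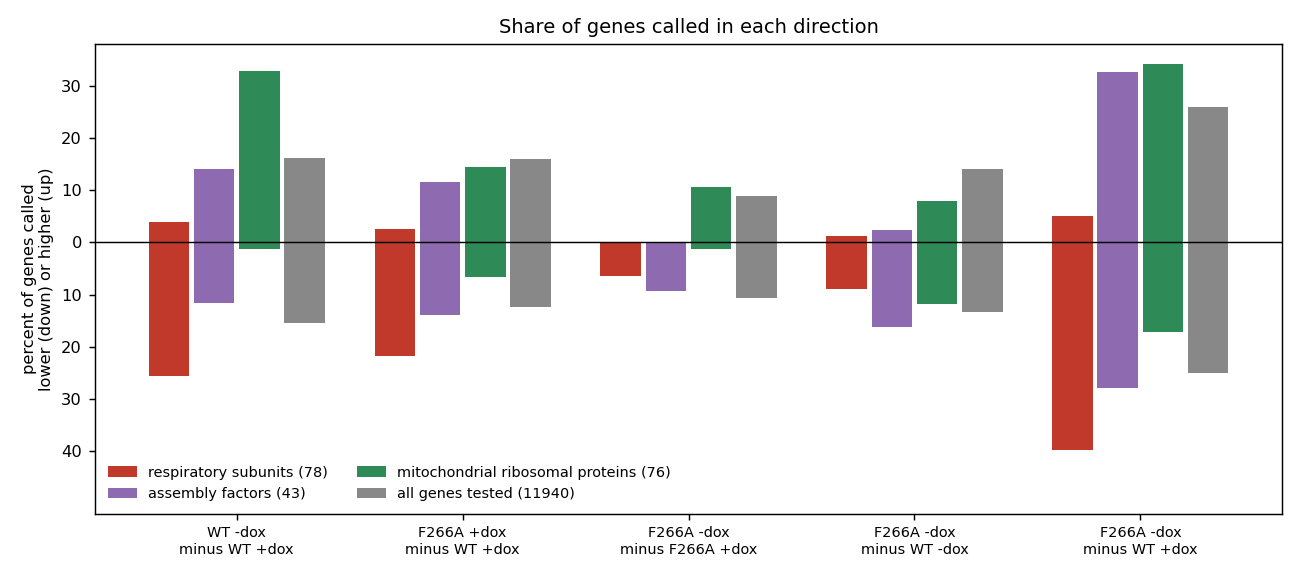
Percent of genes called higher (bars up) or lower (bars down) in 5 comparisons, for respiratory subunits, assembly factors, mitochondrial ribosomal proteins and all genes tested, with the number of genes in parentheses. Respiratory subunits were called lower far more often than higher in each comparison, for example 25.6% against 3.85% on WT withdrawal, whereas all genes were close to even.

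Assembly factors, which build the complexes but are not part of them, were split. Of 43 tested, 6 rose and 5 fell on WT withdrawal, 5 were higher and 6 lower in F266A +dox minus WT +dox, 4 fell and none rose on F266A withdrawal, 1 was higher and 7 lower in F266A -dox minus WT -dox, and 14 were higher and 12 lower between the ends. The shares called were 25.6%, 25.6%, 9.30%, 18.6% and 60.5%, against 31.5%, 28.3%, 19.5%, 27.4% and 50.9% of all genes, so all but the last were below the background. Nubpl, which delivers iron-sulfur clusters to complex I, read 10.76 and 10.71 in WT +dox and 10.19 and 10.31 after withdrawal, while the F266A arrays read 10.25 and 10.22 with doxycycline and 9.81 and 9.81 without. It was lower in all 5 pairwise comparisons, by 0.93 ± 0.07 between the ends. Ndufaf5 and Ndufaf7, 2 methyltransferases that act on complex I subunits, were lower between the ends by 0.66 ± 0.08 and 0.73 ± 0.09, and Cox18, which inserts a complex IV subunit into the membrane, by 0.51 ± 0.07. Others were higher: Uqcc3, a complex III factor, rose by 0.43 ± 0.07 on WT withdrawal, and Sco1, a copper carrier for complex IV, was higher by 0.48 ± 0.10 between the ends. The Sco1 gene values lay below the expression minimum in WT +dox (5.53 and 5.44) and above it in F266A -dox (6.13 and 5.80). The sign of its difference is thus not independent of the filter.

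Genes that supply electrons to the chain were called on WT withdrawal at about the rate of all genes. Of 16 genes of the citrate cycle and pyruvate dehydrogenase, 4 fell and 1 rose on WT withdrawal and 5 were lower and none higher in F266A +dox minus WT +dox, and 6 were lower and 2 higher between the ends. On F266A withdrawal 1 fell and 1 rose, and in F266A -dox minus WT -dox 2 were lower and 1 higher. The shares called were 31.2% on WT withdrawal, 31.2% in F266A +dox minus WT +dox and 50% between the ends, against 31.5%, 28.3% and 50.9% of all genes, and 12.5% and 18.8% in the last comparisons named, against 19.5% and 27.4%. Citrate synthase, Cs, read 11.58 and 11.57 in WT +dox and 11.20 and 11.23 after withdrawal, while the F266A arrays read 11.26 and 11.20 with doxycycline and 11.13 and 11.15 without. It fell by 0.36 ± 0.06 on WT withdrawal, so that, as with Sdhb and Sdhc, the 3 other groups lay together below WT +dox. Idh3g and Pdha1 fell with it, by 0.26 and 0.20, and Pdhx rose by 0.28. Suclg1, a subunit of the succinate-forming enzyme, was higher between the ends by 0.35 ± 0.06, while Suclg2 was lower by 0.37.

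The mobile electron carrier went the other way from the complexes it connects. Cytochrome c, Cycs, read 10.84 and 10.91 in WT +dox and 11.12 and 11.03 after withdrawal, while the F266A arrays read 11.17 and 11.16 with doxycycline and 11.65 and 11.61 without. It was higher in all 5 pairwise comparisons, by 0.76 ± 0.07 between the ends. Cytochrome c1 (Cyc1) and the acyl carrier subunit Ndufab1, complex subunits whose names the rule did not match, were lower between the ends by 0.23 ± 0.07 and 0.22 ± 0.07 and were called in no other comparison. Dmac2l, known as coupling factor B of the ATP synthase, fell by 0.53 ± 0.10 on WT withdrawal and was lower by 0.76 ± 0.10 between the ends, and the ATP synthase inhibitor Atpif1 was not called in any comparison. Both were added to the lists once the annotation was read.

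Among 8 regulators of respiratory genes, Ppargc1b, the coactivator PGC-1 beta, had the largest changes. It read 7.34 and 7.83 in WT +dox and 6.85 and 6.88 after withdrawal, while the F266A arrays read 6.70 and 6.63 with doxycycline and 6.50 and 6.42 without, so the WT +dox arrays were the highest and also the farthest apart. It fell by 0.72 ± 0.13 on WT withdrawal and was lower by 0.92 ± 0.13 in F266A +dox than in WT +dox. Yy1 rose by 0.19 ± 0.06 on WT withdrawal, Gabpa was lower by 0.26 ± 0.08 in F266A -dox than in WT -dox, and Nrf1, the gene for nuclear respiratory factor 1, differed by 0.24 ± 0.08 on WT withdrawal without passing the test (adjusted p = 0.052). The counts were 1 higher and 1 lower on WT withdrawal, 0 and 1 in F266A +dox minus WT +dox, 0 and 0 on F266A withdrawal, 0 and 2 in F266A -dox minus WT -dox, and 1 and 2 between the ends, so that 25% were called on WT withdrawal and 37.5% between the ends, below the 31.5% and 50.9% of all genes. In the other comparisons, in the order given, 12.5%, 0% and 25% were called, against 28.3%, 19.5% and 27.4% of all genes.

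Genes that copy and transcribe mitochondrial DNA showed 3 rises and no fall among 11 on WT withdrawal, in Mterf4 (0.33), Tfb2m (0.30) and Ssbp1 (0.20), and the 27.3% called was near the 31.5% of all genes (16.1% higher). Between the ends 3 were higher and 2 lower, among them Polg2, the accessory subunit of the mitochondrial polymerase, lower by 0.41 ± 0.09. In the remaining comparisons 1 was higher and 1 lower (F266A +dox minus WT +dox), 1 rose (F266A withdrawal) and 1 was lower (F266A -dox minus WT -dox). The shares called in these were 18.2%, 9.09% and 9.09%, against 28.3%, 19.5% and 27.4% of all genes. Between the ends the share was 45.5%, against 50.9%. The mitochondrially encoded subunit ND5, the only one measured, read 11.28 and 11.62 in WT +dox and 11.15 and 11.11 after withdrawal and was not called in any comparison.

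Ndufa4l2 also belonged to a list of 8 hypoxia-linked genes. On WT withdrawal 5 of the 8 (62.5%, against 16.1% of all genes) rose and none fell: Bnip3, a mitophagy receptor, by 2.27 ± 0.10, Pdk1, a kinase that shuts off pyruvate dehydrogenase, by 0.53 ± 0.07, Ndufa4l2 by 0.52, Higd1a by 0.30 and Pdk3 by 0.24. Bnip3 read 9.03 and 9.18 in WT +dox and 11.42 and 11.33 after withdrawal, while the F266A arrays read 9.71 and 9.53 with doxycycline and 10.21 and 10.42 without, and was highest in WT -dox, like Ndufa4l2. On F266A withdrawal 1 rose, Bnip3 by 0.69 ± 0.10, and 1 fell (25% called, against 19.5% of all genes). In F266A -dox minus WT -dox 4 were lower (50%, against 13.4% of all genes) and none higher. In F266A +dox minus WT +dox 1 was higher and 1 lower, and between the ends 1 was higher and 2 lower. The shares called were 25% and 37.5% in these comparisons, below the 28.3% and 50.9% of all genes.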

How the data were processed

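Total RNA of 8 samples (4 groups of 2 arrays, grouped by their labels) was hybridized to Affymetrix whole-genome mouse arrays. The authors normalized them together by RMA in R 2.11.1 (per the labels) and deposited log2 expression values, 1 per probe set, and these were used as deposited. RMA forces a shared distribution on the arrays, so a change of all mRNAs in one direction would not be seen. The number of arrays limits the precision. Gene symbols came from GEO's platform annotation, which can be old: 34945 probe sets had 1 symbol, 932 several and 9160 none, and 64 control probe sets were left out. Of the probe sets with several symbols, 9 that listed a member's symbol beside another were left out.

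Probe sets whose linear-scale value exceeded 50 in 1 or more arrays were kept, after the filter in the study's methods, and averaged per gene. All 4 groups were fitted together with limma 3.58.1 in R 4.3.3 (4 residual and 5.32 prior degrees of freedom), and p-values were adjusted by Benjamini-Hochberg over all 11940 genes. Errors are standard errors. The fit was tested on simulated data with 200 changed genes among 11940. It recovered 3.43% of changes of 0.25 on the log2 scale, 64.3% of 0.5 and 95.8% of 1, and 4.49% of calls were false. Far fewer genes changed there than were called in these arrays, so the rates do not carry over directly. A difference that was not called is not evidence of no change. The study's methods name SAM, which was not run. Alternatives covered the filter, the gene summary, the normalization, the prior variance, array weights, blocks and each left-out array.

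The members and lists were chosen with earlier results of these data known. Named genes were a fixed set of isoforms, complex II subunits and ATP synthase genes, up to 3 called members a direction, complex and comparison, every member called with a 1.5-fold difference, up to 4 called genes a list, the largest uncalled values where a complex had no call, and members with disagreeing probe sets. Genes outside it were named after their values were seen. Promoters came from RefSeq (GRCm38.p6).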

Additional observations from a re-analysis of the deposited data

Results flagged for a closer look

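The effect of withdrawal differed between the WT and F266A lines (interaction in limma, adjusted p under 0.05) for 7 genes of the pathway and marker lists. The values are the F266A withdrawal difference minus the WT one on the log2 scale. Among hypoxia-linked genes the value was -1.58 ± 0.14 for Bnip3 and -0.45 ± 0.10 for Pdk1, and for Mterf4, a factor of mitochondrial transcription and translation, it was -0.38 ± 0.09. Among 76 mitochondrial ribosomal protein genes it was -0.39 ± 0.09 for Mrpl20 and -0.40 ± 0.09 for Mrpl36. Among the fibroblast markers it was 0.52 ± 0.13 for Cav1 and -0.71 ± 0.15 for Vim. The Cav1 gene values lay below the expression minimum in the WT +dox and WT -dox arrays (5.27 to 5.52 on the log2 scale). No respiratory subunit had an interaction call.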

How the results depend on the processing

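No member called in a pairwise comparison changed sign under any alternative run. With a trended and robust prior variance more members were called: 36 on WT withdrawal, 33 in F266A +dox minus WT +dox, 23 on F266A withdrawal, 25 in F266A -dox minus WT -dox and 5 for the interaction. The shares set beside those of all genes in the sections above are from the main fit. With at least a 2-fold change required, the counts were 1, 0, 0 and 0 in these pairwise comparisons and 1 between the ends. With no expression filter 3 were called on F266A withdrawal and 5 in F266A -dox minus WT -dox, and the same numbers, 3 and 5, resulted when only the groups compared were fitted, which was not possible for the interaction or the test of any difference. On F266A withdrawal a minimum of 100 gave 9 and quantile normalization 15. With each probe set on its own, 64 of 145 were called between the ends, 2 for the interaction and 46 for any difference. Leaving out each array in turn gave 10 to 24 calls on WT withdrawal, 8 to 19 in F266A +dox minus WT +dox, 2 to 5 on F266A withdrawal, 2 to 7 in F266A -dox minus WT -dox, 26 to 32 between the ends, 0 to 1 for the interaction and 17 to 27 for any difference. A group left with 1 array was assumed to vary like the others. The cause of these changes was not tested, beyond the fewer arrays. SAM was not run. The number of arrays, 2 a group, limits what could be called.

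Replicate numbers are shared by the 4 groups in the labels. Deviations from group means correlated at 0.13 and 0.16 for same-numbered arrays within a line but at -0.11 to -0.18 between lines, so the numbers were not taken to pair the arrays. With the replicate number as a block, 18, 15, 4, 5 and 30 members were called in the 5 pairwise comparisons in the order above, 0 for the interaction and 23 for any difference. With the pairing crossed between the lines, an alternative chosen after seeing the data, the counts were 24, 20, 7, 9, 36, 0 and 31.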
